A study of Homo sapiens with 6 samples.

Results

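The genes described here are 10 components of the cytosolic nucleic acid sensing pathway, chosen by symbol from the 32192 genes of the deposited count table: MB21D1 (the older symbol of cGAS), TMEM173 (the older symbol of STING), IFI16, ZBP1, TLR3, MAVS, TBK1, IKBKE, IRF3 and TREX1. They were chosen because A549 cells were given plasmid DNA, to which a pathway of such sensors and adaptors could respond. A549 is an established line of human lung adenocarcinoma cells. In the group APEX1-OE (n = 3 libraries) the pIRES-hrGFP-1a plasmid carried the cDNA of APEX1, the endonuclease of base excision repair, and in Ctrl (n = 3) the cells received the control plasmid. Cells of both groups were therefore transfected, no untransfected cells were analysed here, and no source used here gives the time from transfection to RNA extraction. The comparison asks how the pathway differed with the insert, not how it responded to plasmid DNA. No label says that the replicates came from separate cultures, so the p-values measure the spread between these libraries, which may be technical.

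MB21D1 encodes the enzyme that binds double-stranded DNA in the cytosol and makes the dinucleotide cGAMP. TMEM173 encodes the membrane protein of the endoplasmic reticulum that binds cGAMP and recruits the kinase TBK1, which phosphorylates the transcription factor IRF3 so that it enters the nucleus and activates type I and type III interferon genes. TLR3 and MAVS feed signals from double-stranded RNA into the same kinases, and TREX1, a DNA exonuclease, removes DNA before it is sensed. Epithelial cells such as those of the lung use this pathway against DNA viruses, and tumor cells often hold its sensor and adaptor at low levels.

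The 6 libraries held between 28131955 and 41009197 counts, and 16971 genes passed the filter on low counts, including all 10 pathway genes. APEX1 itself stood at 618, 680.3 and 768 FPKM (fragments per kilobase of transcript, scaled to sequencing depth) in APEX1-OE replicates 1 to 3 and at 129, 126 and 124 in Ctrl, in keeping with the labels (log2 fold change 2.42, SE 0.171, adjusted p = 0.00809, edgeR quasi-likelihood test). It was the only gene called in that test, 0.00589% of those tested. The first principal component, with 72.6% of the variance, set APEX1-OE replicate 1 and Ctrl replicates 1 and 2 (called side A below) apart from APEX1-OE replicates 2 and 3 and Ctrl replicate 3 (side B), across the groups. The epithelial markers KRT8, KRT18, KRT7, CDH1 and EPCAM summed to between 15836 and 23076 CPM (counts scaled to library size) in every library, although EPCAM was low. The alveolar type II markers SFTPC, SFTPB and NKX2-1 had at most 10 counts everywhere, as had the immune markers PTPRC, CD3E and LYZ. SFTPD, the remaining alveolar type II marker in the count table, did not stay within that limit. With SFTPD, the 4 alveolar type II markers summed to 5.00 to 5.25 CPM in APEX1-OE and 5.75 to 5.76 in Ctrl. The other immune markers, CD79A, CD14 and ITGAM, did not stay within it either. Summed over 6 immune markers the CPM ran from 6.19 to 9.20 in APEX1-OE and from 8.76 to 9.95 in Ctrl. None of the fibroblast markers COL1A1, COL3A1, DCN and PDGFRB stayed within 10 counts everywhere. Together they summed to 5.45 to 7.98 CPM in APEX1-OE and 7.09 to 7.50 in Ctrl. The endothelial markers PECAM1, VWF and CDH5 all stayed within 10 counts. In bulk RNA, fewer cells expressing a gene and less RNA per cell cannot be told apart.

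The transcription factor IRF3 stood highest, the DNA sensor MB21D1 near the middle of all tested genes and the adaptor TMEM173 low. On the FPKM scale, which is per length, levels averaged over the 6 libraries put IRF3 first with 51.6, followed by IFI16 with 16.03, MAVS with 13.8, TREX1 with 9.68 and IKBKE with 8.27. TBK1 followed with 4.14, then MB21D1 with 2.35, TLR3 with 1.05, ZBP1 with 0.532 and TMEM173 with 0.368. Of all tested genes, 93.7% had a lower mean FPKM than IRF3, 47.5% a lower one than MB21D1 and 16.2% a lower one than TMEM173. The ranges over the 6 libraries did not overlap between IRF3 and IFI16, between MAVS and TREX1, or between MB21D1 and TLR3. The other neighbours in this order overlapped: IFI16 was above MAVS in only 3 of 6 libraries, and TBK1 reached 7.19 FPKM in APEX1-OE replicate 3, where IKBKE was at 7.15.

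**Figure D1:**
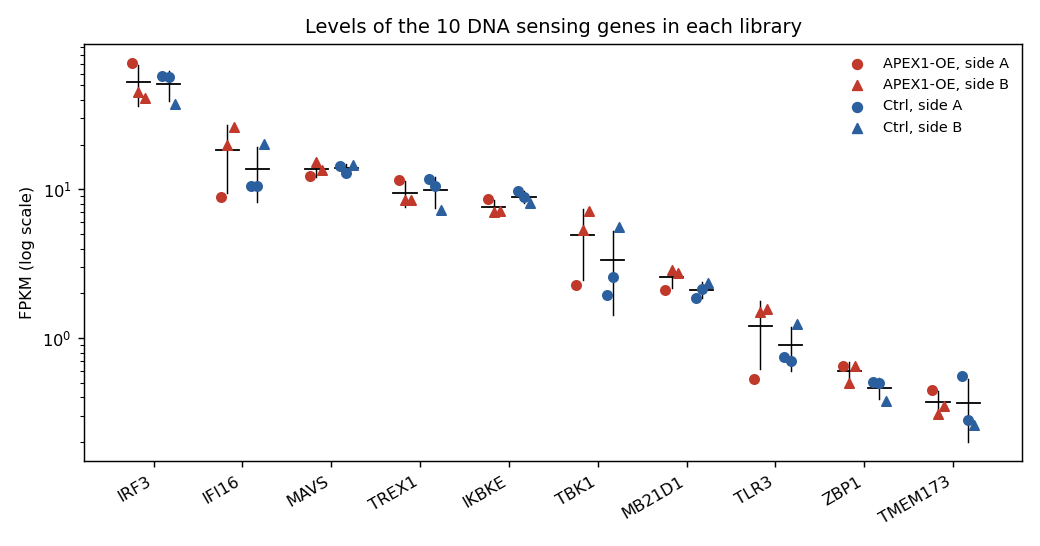
FPKM of the 10 pathway genes on a log axis, 1 point per library, with APEX1-OE and Ctrl in different colors the side of each library in the shape of the point, horizontal lines at group means and vertical lines of 1 SD on either side (n = 3). IRF3 stood highest with a mean of 51.6 FPKM and TMEM173 lowest with 0.368. The points of IFI16, TLR3, TBK1, MB21D1, IKBKE, IRF3 and TREX1 separated by side rather than by group. Those of MAVS, ZBP1 and TMEM173 separated by neither.

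The 10 genes differed between the sides of the libraries in both directions, low-GC genes being higher on side B and high-GC genes lower. TBK1 was 2.33-fold higher on side B than on side A, IFI16 1.94-fold and TLR3 1.92-fold, and MB21D1 was 1.15-fold higher. The other 6 were lower on side B, with ratios of 0.963 for MAVS, 0.796 for ZBP1, 0.721 for IKBKE, 0.664 for TMEM173, 0.628 for TREX1 and 0.587 for IRF3. Transcript GC content was 36.1% for TBK1, 37.6% for TLR3, 38.6% for IFI16 and 43.8% for MB21D1, and it lay between 52.1% for MAVS and 62.8% for TREX1 in the other 6. Across all genes with a GC value, side B minus side A had a median log2 difference of 0.83 in the fifth with the lowest GC, where 95.1% of genes were higher on side B, and of -0.58 in the fifth with the highest GC, where 5.17% were. What set the sides apart, and its part in the values of the 10 genes, was not tested. The log2 fold changes below are from the edgeR fit in which only the condition is a term, where every adjusted p of the 10 was 1.0, unless the side is named as a second term.

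**Figure D2:**
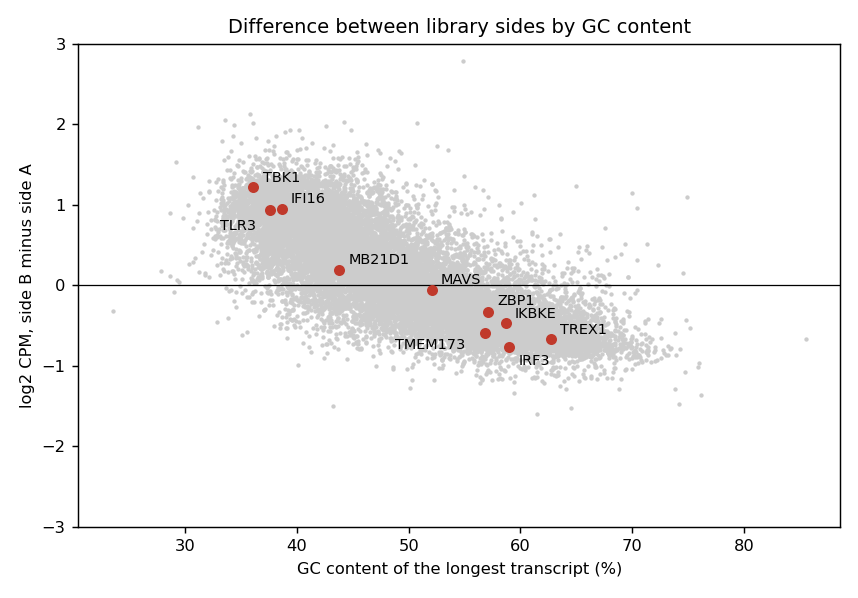
Difference between the libraries of side B and side A (log2 CPM, vertical) against the GC content of the longest transcript (percent, horizontal), 1 small point per tested gene and the 10 pathway genes labelled. TBK1, with 36.1% GC, was 1.22 higher on side B and IRF3, with 59.0% GC, was 0.77 lower, both within the band of all genes; 2 genes lie outside the plotted range.

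None of the 10 genes was called different between APEX1-OE and Ctrl by edgeR, DESeq2 or limma, and none had an unadjusted p under 0.05 in edgeR, where 0.695% of all tested genes did. In that fit, 7 of 10 log2 fold changes were above 0 with a median of 0.16, beside 57.5% and a median of 0.03 over all genes. With the side as a term, 8 of 10 were above 0 with a median of 0.16, beside 51.6% and 0.0081. Of the 10, ZBP1 and IRF3 then had unadjusted p-values under 0.05 and both were higher in APEX1-OE, beside 11.6% of all genes in either direction and 8.61% higher, and no adjusted p of the 10 was under 0.05, where 0.0236% of all genes were called. The largest standard error with the condition alone was that of TBK1, whose 95% confidence interval ran from -0.53 to 1.57 on the log2 scale.

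**Figure D3:**
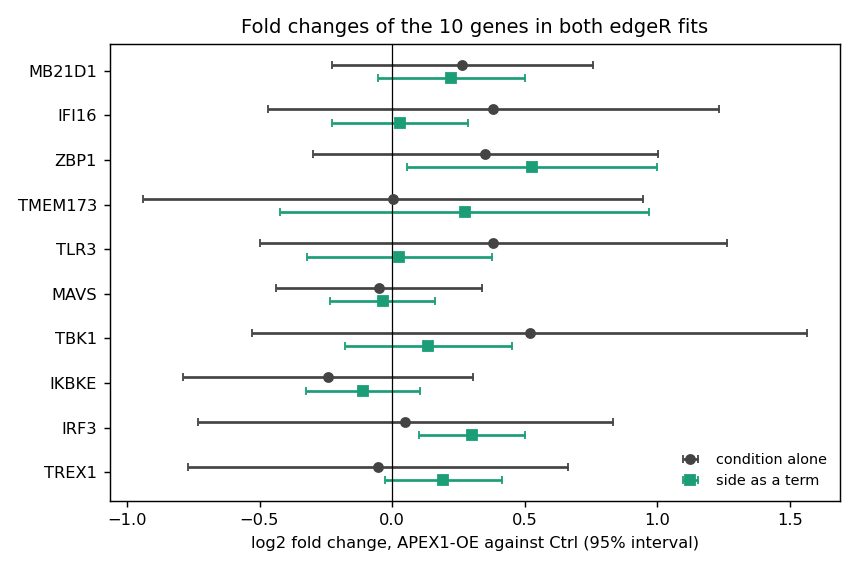
Log2 fold change of APEX1-OE against Ctrl for the 10 pathway genes with 95% confidence intervals, from the fit on the condition alone and from that with the side of the libraries as a second term. Every interval of the first fit includes 0, and in the second those of ZBP1 (0.53) and IRF3 (0.30) do not.

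Among the DNA sensors, MB21D1 (ENSG00000164430.15, minus strand, chr6:73413515-73452297 of GRCh38) stood at 2.12, 2.89 and 2.75 FPKM in APEX1-OE replicates 1 to 3 and at 1.85, 2.15 and 2.36 in Ctrl, with means of 2.59 ± 0.410 (SD, n = 3) and 2.12 ± 0.256 (SD, n = 3). APEX1-OE replicate 1 lay below 2 of the Ctrl libraries, so the groups overlapped in FPKM, as did those of the other 9, beside 2.96% of all genes without overlap and 1.19% without overlap and higher. In CPM normalized by TMM (a scaling for library composition) they did not: the values were 10.8, 12.5 and 11.5 in APEX1-OE and 8.67, 10.2 and 10.0 in Ctrl. MB21D1 was alone among the 10 in this, a count of 1, beside 3.39% of all genes, 1.38% higher and 2.01% lower. Its log2 fold change was 0.26 (SE 0.215), and 0.22 (adjusted p = 0.520, edgeR) with the side as a term. Leaving out APEX1-OE replicate 1 raised the number of genes without overlap from 1 to 3, adding TLR3 and IKBKE, and 25.8% of all genes did not overlap in that setting. Leaving out APEX1-OE replicate 2 gave 2, adding ZBP1, beside 5.93% of all genes.

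IFI16 (ENSG00000163565.18, plus strand, chr1:158999968-159055155), a nuclear and cytosolic DNA-binding protein that assists the cGAS pathway, showed wider groups than MB21D1 and ZBP1. It stood at 8.83, 19.9 and 26.3 FPKM in APEX1-OE and at 10.5, 10.5 and 20.1 in Ctrl. In both groups the libraries of side B were high and those of side A low. Its log2 fold change of 0.38 (SE 0.368) became 0.03 (SE 0.120, adjusted p = 0.940, edgeR) with the side as a term. With the condition alone it ran from 0.08 without APEX1-OE replicate 3 to 0.69 without Ctrl replicate 3 when 1 library was left out. Within side A the APEX1-OE library was lower than the mean of the Ctrl libraries by a log2 difference of -0.14, and within side B the APEX1-OE mean was higher by 0.18.

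ZBP1 (ENSG00000124256.14, minus strand, chr20:57603846-57620576), a sensor of left-handed nucleic acids that can trigger cell death, was scarce, with 61, 64 and 70 counts in APEX1-OE and 45, 55 and 44 in Ctrl. Its FPKM was 0.65, 0.50 and 0.65 in APEX1-OE and 0.51, 0.50 and 0.38 in Ctrl, so the groups overlapped only between 0.50 and 0.51. In CPM normalized by TMM they overlapped more widely, with 2.32, 1.51 and 1.88 in APEX1-OE and 1.67, 1.67 and 1.12 in Ctrl. There APEX1-OE replicate 2 lay below Ctrl replicates 1 and 2. APEX1-OE against Ctrl gave a log2 fold change of 0.35 (SE 0.282). With the side as a term it was 0.53 (SE 0.221, 95% confidence interval 0.06 to 1.00, adjusted p = 0.395, edgeR), and the difference was 0.46 within side A and 0.56 within side B. The adjusted value did not pass 0.05.

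The adaptor TMEM173 (ENSG00000184584.12, minus strand, chr5:139475533-139482935) was the least expressed of the 10, with 29, 27 and 26 counts in APEX1-OE and 34, 21 and 21 in Ctrl. Its FPKM was 0.45, 0.31 and 0.35 in APEX1-OE and 0.56, 0.28 and 0.26 in Ctrl, with the highest and the lowest values both in Ctrl. The log2 fold change was 0.0036 (SE 0.408), with 0.27 (SE 0.326, adjusted p = 0.765, edgeR) when the side was a term, and the first 95% confidence interval ran from -0.94 to 0.95, so these counts set no narrow bound on it. Leaving out APEX1-OE replicate 1 turned it to -0.26, leaving out Ctrl replicate 2 to -0.14 and leaving out Ctrl replicate 3 to -0.24.

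The mitochondrial adaptor MAVS (ENSG00000088888.17, plus strand, chr20:3846799-3876123), which relays RIG-I and MDA5, was steady. It stood at 12.2, 15.3 and 13.5 FPKM in APEX1-OE and at 14.4, 12.97 and 14.6 in Ctrl. The groups overlapped and the means, 13.7 ± 1.54 (SD, n = 3) and 14.0 ± 0.863 (SD, n = 3), differed by less than either SD. A log2 fold change of -0.05 was found, with a 95% confidence interval from -0.44 to 0.34, the narrowest of the 10, and one of -0.04 (SE 0.0928, adjusted p = 0.904, edgeR) with the side as a term. Leaving out APEX1-OE replicate 3 brought the first to 0.0085.

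TLR3 (ENSG00000164342.12, plus strand, chr4:186068911-186088073), the endosomal receptor of double-stranded RNA, stood at 0.53, 1.51 and 1.57 FPKM in APEX1-OE and at 0.75, 0.70 and 1.24 in Ctrl. As with IFI16, the side B libraries were the high ones in both groups. Its log2 fold change went from 0.38 (SE 0.381) to 0.03 (SE 0.163, adjusted p = 0.961, edgeR) with the side as a term, and it was -0.34 within side A and 0.31 within side B. With the condition alone, leaving out 1 library gave from 0.19 without APEX1-OE replicate 3 to 0.67 without APEX1-OE replicate 1.

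TLR3 was alone among the 6 pathway genes with a RefSeq promoter window (IFI16, TLR3, MAVS, TBK1, IKBKE and TREX1) that held GAAA followed, after any 2 bases, by a second GAAA, searched on both strands. This is the core of the interferon-stimulated response element that interferon regulatory factors and the interferon-activated complex ISGF3 bind. Each window holds 300 bases, 250 before and 50 after the start site, on GRCh38.p14, and 4.38% of all 27305 genes with a window held the motif. The site of TLR3 is shown beside those of 2 type III interferon genes and of ISG15, which encodes a ubiquitin-like protein made in answer to interferon, because their counts or levels are given below. The 10 capital letters mark the motif or its reverse complement, and IFNL1 and ISG15 each hold another match that overlaps the one shown.
TLR3, chr4:186069142-186069171, plus strand: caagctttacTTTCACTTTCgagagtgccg
IFNL1, chr19:39296189-39296218, plus strand: aggatttcagTTTCTCTTTCcttcttgatg
IFNL3, chr19:39245407-39245436, minus strand: tctccatcagTTTCTCTTTCcctccagctg
ISG15, chr1:1013380-1013409, plus strand: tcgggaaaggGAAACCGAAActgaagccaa
The motif lay on the reverse strand in TLR3, IFNL1 and IFNL3 and on the forward strand in ISG15, and the 30 bases of IFNL3 stand unchanged in its near copy IFNL2. Of the 17 listed interferon and response genes with a window, 12 held the motif (70.6%). They include IFNA1 and CXCL9, which did not pass the filter, so they are not the same 17 as the tested genes below. A match of letters is a description and not evidence of binding.

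Of the kinases, TBK1 (ENSG00000183735.9, plus strand, chr12:64452090-64502114), which phosphorylates IRF3, had the largest log2 fold change of the 10 and the largest spread. Its FPKM was 2.27, 5.33 and 7.19 in APEX1-OE and 1.94, 2.58 and 5.55 in Ctrl. The Ctrl library of side B was above 2 of the 3 APEX1-OE libraries. A log2 fold change of 0.52 (SE 0.453) became 0.14 (SE 0.147, adjusted p = 0.739, edgeR) with the side as a term, with 0.13 within side A and 0.15 within side B. The first value fell to 0.20 without APEX1-OE replicate 3 and reached 1.01 without Ctrl replicate 3, both libraries of side B.

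Its relative IKBKE (ENSG00000263528.7, plus strand, chr1:206470476-206496889), an inducible kinase of the same substrates, stood at 8.57, 7.06 and 7.15 FPKM in APEX1-OE and at 9.82, 8.89 and 8.15 in Ctrl. APEX1-OE replicate 1 alone lay inside the Ctrl range and the other two lay below it. The log2 fold change was -0.24 (SE 0.236), and -0.11 (SE 0.101, adjusted p = 0.694, edgeR) with the side as a term. Both kinases thus had differences of opposite sign within errors that include 0.

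IRF3 (ENSG00000126456.15, minus strand, chr19:49659569-49665875), the factor the kinases act on, stood at 70.8, 45.4 and 40.9 FPKM in APEX1-OE and at 58.2, 56.8 and 37.6 in Ctrl. The means of 52.4 ± 16.1 (SD, n = 3) and 50.9 ± 11.5 (SD, n = 3) were close. APEX1-OE replicate 1 was the highest library, and the libraries of side A were all above those of side B. The log2 fold change was 0.05 (SE 0.338), and it turned to -0.37 without APEX1-OE replicate 1 and to -0.16 without Ctrl replicate 3. With the side as a term it was 0.30 (SE 0.0932, 95% confidence interval 0.10 to 0.50, adjusted p = 0.356, edgeR), with 0.41 within side A and 0.19 within side B. When APEX1-OE replicate 3 was left out of that fit the adjusted p of IRF3 was 0.000484 (edgeR), in a fit that called 2864 genes. In the annotation 19.3% of its exon bases lie opposite BCL2L12, and no source used here says whether counting used strand.

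The exonuclease TREX1 (ENSG00000213689.9, plus strand, chr3:48465811-48467645) stood at 11.7, 8.45 and 8.46 FPKM in APEX1-OE and at 11.8, 10.5 and 7.31 in Ctrl, and the APEX1-OE range lay inside the Ctrl range. Its log2 fold change was -0.05 (SE 0.310), and it was 0.19 (SE 0.103, adjusted p = 0.485, edgeR) with the side as a term, so its direction depends on that term. It also turned when 1 library was left out, to 0.06 and 0.08 in the absence of the second and the third APEX1-OE library, and to 0.10 and 0.02 in the absence of the first and the second of Ctrl. All of its exon bases also belong to ATRIP on the same strand, so its counts are uncertain. Within both sides the difference had the same sign for 8 of the 10 genes, 6 above 0 and 2 (MAVS and IKBKE) below, beside 55.4% of all tested genes with the same sign. APEX1-OE replicate 1 is the only APEX1-OE library of side A, and Ctrl replicate 3 the only Ctrl library of side B. Each difference within a side therefore rests on 1 library in 1 group.

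The rest of the pathway was followed through 9 lists of 128 genes, of which 125 were in the count table and 115 passed the filter. None was called with the condition alone, and 2 had an unadjusted p under 0.05 (edgeR), both higher, JUN and IFNL3, beside 0.695% of all genes and 0.395% higher. With the side as a term these 2 were called and 23 genes were higher and 3 lower at an unadjusted p under 0.05, beside 8.61% and 3.02% of all genes. The calls rested on the libraries used: the side fit called 0 of the 115 when the first or the second library of either group was left out, and without APEX1-OE replicate 3 it called 37, of which 32 were higher and 5 lower, in a setting that called 2864 genes in all, 1942 higher and 922 lower.

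Other DNA sensors were led in level by XRCC6 and XRCC5, the Ku subunits that bind DNA ends, with mean FPKM of 90.4 and 33.8, and by the helicase DDX41 with 34.8, whereas AIM2 and MNDA had at most 1 count in any library. In this list 7 of 10 tested genes had log2 fold changes above 0 with a median of 0.13, and with the side as a term 5 of 10 with a median of -0.00065. The largest were those of the helicase DHX36 and the nuclease MRE11A, both 0.49 and not called, which stood at 0.08 and 0.20 with the side as a term. Subunits of RNA polymerase III, which can copy AT-rich DNA into RNA that RIG-I detects, had a median of 0.03 over 13 genes, with POLR3G at 0.46 and POLR3F at 0.33, neither called. These stood at 0.11 and 0.0099 with the side as a term, and without APEX1-OE replicate 3 the first value of POLR3G was 0.02. Among RNA sensors, OAS1 (110.9 FPKM) and OAS3 (88.8), which make the activator of RNase L, were high. DDX58, the gene of RIG-I, stood at 35.0 FPKM with a log2 fold change of 0.51, and IFIH1, the gene of MDA5, was at 0.48, and with the side as a term they were at 0.17 and 0.02. In the annotation 43.2% of the exon bases of DDX58 are shared with another gene on the same strand, so its counts are uncertain.

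Genes that move cGAMP or hold STING in check numbered 22, with 11 above 0 and a median of -0.0066, and with the side as a term 16 were above 0 with a median of 0.05. The largest differences there were those of the anion channel subunit LRRC8C (0.55) and of ENPP1 (0.47), the phosphodiesterase that cleaves cGAMP outside the cell, neither called, and with the side as a term they stood at 0.11 and 0.28. SSR2 (124 FPKM), SURF4 (103) and ABCC1 (54.1), which exports cGAMP, were the highest in level. Genes of nucleic acid clearance, with PLD3 at 151, BANF1 at 133 and ADAR at 81.8 FPKM, had a median of -0.02 over 12 genes, and the nucleases PLD4 (-0.27, and -0.21 with the side as a term) and DNASE1L1 (-0.23 and -0.16) were not called. In the annotation 40.0% of the exon bases of DNASE1L1 lie opposite RPL10. Of 14 adaptors and scaffolds of the kinases, 12 were above 0 with a median of 0.17, but 6 were with the side as a term, with a median of -0.03. TANK, a scaffold of TBK1, went from 0.32 to -0.13 and CYLD, a deubiquitinase, from 0.37 to 0.08.

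Among transcription factors of the response, IRF7 averaged 101 FPKM and RELA 37.6. JUN, a subunit of AP-1 that binds the interferon beta enhancer together with ATF2, had 2992, 3972 and 2453 counts in APEX1-OE and 1626, 1847 and 1956 in Ctrl, without overlap. Its log2 fold change was 0.71 (SE 0.240, adjusted p = 1.0, edgeR), and 0.82 (SE 0.126, adjusted p = 0.0492, edgeR) with the side as a term. ATF2 stood at 0.19 and -0.16 in the same fits. Of 9 genes of the ZBP1 and inflammasome branch, 5 were above 0 with a median of 0.0056, with CASP1 at 0.42 and IL1B at -0.44, neither called, and at 0.24 and -0.58 with the side as a term.

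**Figure D4:**
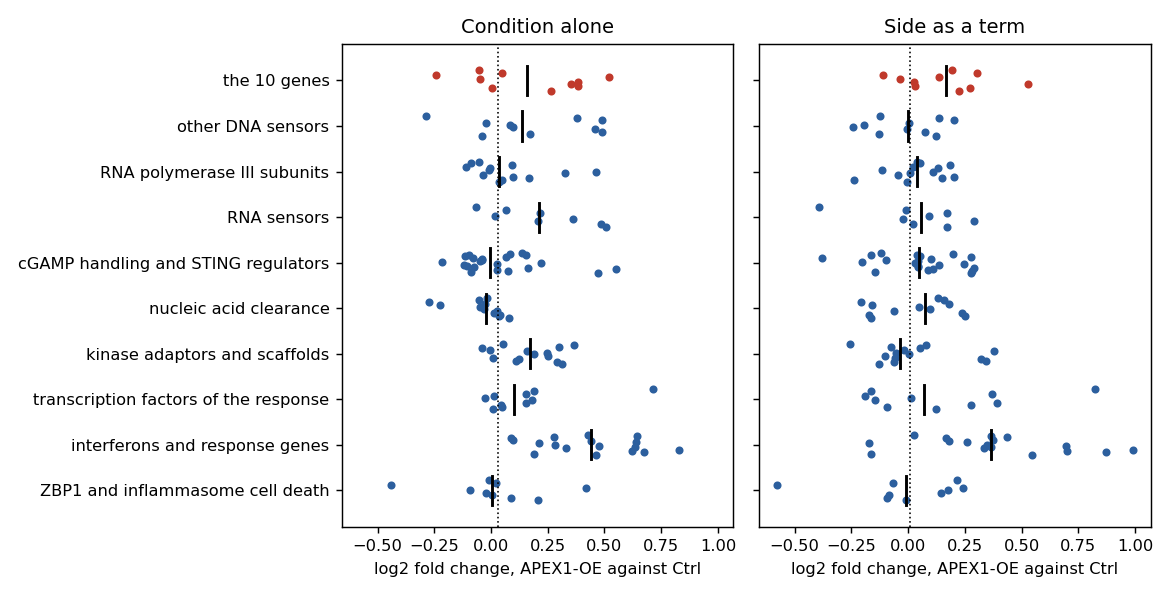
Log2 fold changes of APEX1-OE against Ctrl for the 10 pathway genes and the 9 lists of other pathway genes, 1 point per tested gene with the median of each list as a bar and that of all tested genes as a dotted line, from the fit on the condition alone (left) and from that with the side as a second term (right). All 17 interferon and response genes lie above 0 on the left with a median of 0.44 and 15 on the right with a median of 0.36, while the medians of the other 8 lists lie between -0.02 and 0.21 on the left.

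The interferon genes and the genes that answer to interferon, the output of the pathway, had the highest median of the 9 lists. All 17 tested genes had log2 fold changes above 0 with the condition alone, with a median of 0.44 beside 0.03 over all genes. Of the 17, 4 did not overlap between groups, all higher, beside 1.38% of all genes higher without overlap. None was called in that fit and 1 had an unadjusted p under 0.05 (edgeR), beside 0.695% of all genes. With the side as a term 15 of 17 were above 0, beside 51.6% of all genes, 10 had an unadjusted p under 0.05, all higher, beside 8.61% of all genes higher, and 1 was called, beside 0.0236%. The differences were above 0 within both sides for 12 of 17 (70.6%), beside 33.1% of all genes, each resting on 1 library in 1 group. These genes share regulators and are not independent of each other.

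The called gene was IFNL3, a type III interferon. It had 258, 282 and 243 counts in APEX1-OE and 128, 155 and 136 in Ctrl, so that every APEX1-OE library was above every Ctrl library. APEX1-OE exceeded Ctrl by a log2 fold change of 0.83 (SE 0.269, adjusted p = 1.0, edgeR), and 0.99 (SE 0.144, adjusted p = 0.0492, edgeR) with the side as a term, with 1.04 within side A and 0.92 within side B. Leaving out Ctrl replicate 3 in the side fit gave IFNL3 an adjusted p of 0.0572, JUN 0.03 and IFNL1 0.00783 (edgeR). IFNL2 and IFNL3 are nearly identical, and how reads were divided between them is uncertain.

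IFNL1 had 822, 711 and 497 counts in APEX1-OE and 410, 433 and 394 in Ctrl. Its log2 fold change was 0.67, and 0.87 (SE 0.144, adjusted p = 0.0669, edgeR) with the side as a term. The first value was 0.22 without APEX1-OE replicate 1. In the side fit the adjusted p was 0.00783 without Ctrl replicate 3 (edgeR). It was 0.000101 without APEX1-OE replicate 3 (edgeR), in the setting that called 2864 genes. Leaving out APEX1-OE replicate 2 gave 0.239, Ctrl replicate 1 0.149 and Ctrl replicate 2 0.226 (adjusted p, edgeR). Without APEX1-OE replicate 1 the log2 fold change of the side fit was 0.55 and IFNL1 was not called. IFNB1, IFNL2 and CCL5 were chosen after their values were seen. IFNB1, the type I interferon that IRF3 activates, had 144, 223 and 183 counts in APEX1-OE and 123, 118 and 126 in Ctrl, with a log2 fold change of 0.46 and of 0.55 (adjusted p = 0.356, edgeR) with the side as a term. IFNL2 stood at 0.62 and 0.70 in the same fits. The chemokine gene CCL5, with 3380, 3501 and 2227 counts in APEX1-OE and 2014, 2370 and 1866 in Ctrl, stood at 0.48 and 0.70 (adjusted p = 0.0669 in the second, edgeR).

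**Figure D5:**
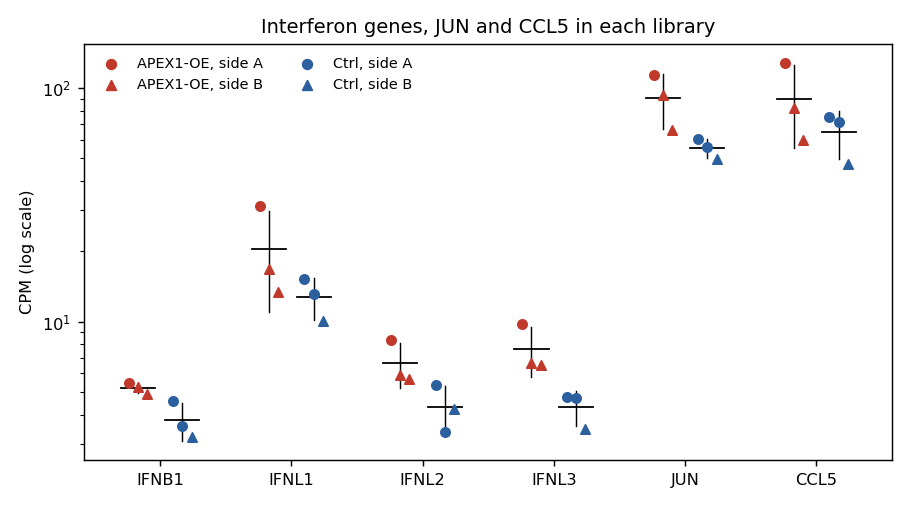
TMM-normalized CPM on a log axis of JUN and of 5 interferon and chemokine genes, 1 point per library, colored by group and shaped by side, with horizontal lines at the mean of each group and vertical lines of 1 SD on either side (n = 3). IFNL3 lies between 6.54 and 9.80 CPM in APEX1-OE and between 3.46 and 4.76 in Ctrl, and IFNL1 is highest in APEX1-OE replicate 1, with 31.2.

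The listed response genes with the highest levels were ISG15, which averaged 1657 FPKM over the 6 libraries and lay between 1133 and 2404, MX1, which averaged 172, and OASL, which averaged 145, whereas CXCL9, TNF and IFNA1 did not pass the filter. These levels were measured in cells that had all received plasmid, and none without it was analysed here.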

How the data were processed

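Poly(A) RNA of 3 APEX1-OE and 3 Ctrl libraries of A549 cells was sequenced as stranded, paired-end reads, and groups were taken from the sample labels. The authors trimmed reads with the FASTX-Toolkit 0.0.13 and aligned them to GRCh38 with TopHat2. The deposited counts per gene are raw, and the FPKM values deposited by the authors were made from uniquely mapped reads. No source used here names the counting tool, its annotation or its use of strand. Replicates were not pooled.

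The filter was filterByExpr (minimum count 10, minimum total 15). Libraries were scaled by TMM. The test was the edgeR 4.0.16 quasi-likelihood F-test (R 4.3.3, robust fit, condition as the only term), with Benjamini-Hochberg adjustment over all 16971 genes at 0.05. A second fit added the side of the first principal component. The side was read from the same counts, so it is not a label. Alternatives used DESeq2 1.42.0, limma 3.58.1 on log2(FPKM + 1) and log2(FPKM + 0.1), other scaling and filtering, a replicate block and leaving out each library. Positions and GC content came from GENCODE 44, and promoter windows from RefSeq on GRCh38.p14. The annotation gave GC content for 98.7% of tested genes.

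The 10 genes, the lists and the tests were chosen with earlier results of these data known. Fold changes are given for the 10 genes, APEX1, every other pathway gene called in either fit and up to 2 tested genes per list with the largest fold change. Outside this rule they are given for IFNB1, IFNL2 and CCL5, which were chosen after their values were seen. Levels are given for up to 3 genes per list with the highest mean FPKM. Likeness of pattern is given for the 3 genes nearest to MB21D1 and to TMEM173. Of the 128 other genes SLC46A2, IFNK and RIPK3 were not matched and are not analysed here, and 10 did not pass the filter: AIM2, MNDA, PYHIN1, TLR7, TLR8, DNASE1L3, IRF9, IFNA1, CXCL9 and TNF. Promoter windows were found for 6 of the 10 genes. The level of 1 gene that this rule names is not reported here.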

Additional observations from a re-analysis of the deposited data

How the results depend on the processing

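The number of the 10 genes called was 0 in all 14 alternatives. Over all genes the count of 1 became 10 (7 higher, 3 lower) with no filter on low counts, 4 with the side as a term, 2 (1 higher, 1 lower) with the replicate block, and 0 to 1 with a library left out, where the adjusted p of APEX1 reached 0.118 and 0.0674 in the absence of the second and the third APEX1-OE library, and 0.210 and 0.207 in that of the first and the second of Ctrl. Deviations from the group means correlated at 0.607, -0.521 and 0.7 between libraries of replicate numbers 1 to 3. APEX1-OE replicate 1 correlated best with Ctrl replicate 2 and APEX1-OE replicate 2 with Ctrl replicate 3. Every correlation between the groups was positive within a side and negative across sides. The check therefore followed the sides and cannot tell whether libraries of the same number were made together. Among the other pathway genes 2 were called with the side as a term in place of 0, and 0 to 37 with a library left out of that fit, where 0 to 1 of the 10 genes were called (settings chosen after seeing the data). The count without overlap was 0 with no composition factors and in FPKM, and 1 to 3 with a library left out. The median over the 10 genes was 0.0772 on log2(FPKM + 1) and 0.054 to 0.202 with a library left out. The direction turned in 11 of 140 recomputed values of the 10 genes and 4 of 252 of the other named genes. With the side as a term TREX1 stood at 0.19, TANK at -0.13 and ATF2 at -0.16. With a library left out TMEM173 ran from -0.26 to 0.44, MAVS from -0.10 to 0.0085, IRF3 from -0.37 to 0.25, TREX1 from -0.35 to 0.10, TANK from -0.15 to 0.65 and ATF2 from -0.10 to 0.47. The cause was not tested. Depth was lowest for TMEM173 and ZBP1 among the 10 genes, with at most 34 and 70 counts in a library.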

Other observations

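By the root mean square difference of centred log2 CPM over the 6 libraries, the genes nearest in pattern to MB21D1 were TNFRSF10D (0.0446), a decoy receptor for the death ligand TRAIL, ZNF426 (0.0488), a zinc finger gene, and THBD (0.0627), the gene of thrombomodulin. Nearest to TMEM173 were CCDC114 (0.0944), DCST2 (0.0969) and PPP1R3G (0.1003), and the first and the second of these have counts as low as those of TMEM173 itself. Likeness over 6 libraries is a description. IRF9, the DNA-binding subunit of ISGF3, had between 1 and 4 counts in every library, and 23.9% of its exon bases are shared with another annotated gene on the same strand.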
